A study of Rattus norvegicus with 8 samples.

Results

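The 7 genes described here are Lactb, Pecr, Aoc1, Prph, Spint2, Frem3 and Tmem106a. They were chosen from measured values, as named genes with the largest deficits on arrays of stem cells on injured liver against stem cells on liver without injury. They are 7 of 21311 genes kept for comparison. Each is read by 1 probe, printed as 1 spot per array, so no second probe of the same gene checks any value below.

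The study profiled mesenchymal stem cells from adipose tissue (ATSC), which were grown from fat under the skin of male Sprague-Dawley rats, on 8 single-colour Agilent Whole Rat Genome arrays. Of these, 3 arrays read ATSC on a liver injured by ischemia and reperfusion (IRI), 4 read ATSC on a liver without that injury (non-IRI), and 1 read ATSC kept in culture (in vitro). The labels give no age, no host animal, no dose or time and no sort of the recovered cells, nor whether each replicate came from its own animal. In such bulk samples, fewer cells of a type and less RNA per cell cannot be told apart.

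Per the file headers, the 3 IRI arrays and the in vitro array were read in 1 scan with 1 grid (scan 1), and the 4 non-IRI arrays in another scan with another grid (scan 2). Each scan held 4 arrays. Injury and scan therefore cannot be told apart in any comparison of IRI with non-IRI below. The in vitro array is the only one that shares scan 1 without sharing the injured liver.

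The 7 genes have unlike roles. Lactb encodes a filament-forming protein of the mitochondrial intermembrane space, related to bacterial beta-lactamases and penicillin-binding proteins. Pecr encodes an enoyl-CoA reductase of peroxisomes, which take part in the breakdown and elongation of fatty acids. Aoc1 encodes diamine oxidase, a secreted copper enzyme that degrades histamine and putrescine. Prph encodes peripherin, an intermediate filament protein best known from peripheral neurons. Spint2 encodes a Kunitz-type inhibitor of epithelial serine proteases such as matriptase and prostasin. Frem3 encodes an extracellular matrix protein of the Fras1 and Frem family, which is found in basement membranes. Tmem106a encodes a membrane protein that has been studied in mouse macrophages.

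The genes lie on 7 chromosomes of the rat genome (RefSeq, build GRCr8): Spint2 on chromosome 1, Aoc1 on 4, Prph on 7, Lactb on 8, Pecr on 9, Tmem106a on 10 and Frem3 on 19. A RefSeq promoter entry was matched for 6 of the 7; Lactb had none in the table used. The 250 bases before the annotated start are shown for Prph (chr7:132097039-132097288, plus strand), whose in vitro level sets it apart below, and for Spint2 (chr1:93708092-93708341, minus strand) and Pecr (chr9:81375807-81376056, minus strand), which were low in vitro. The Prph window lies inside the annotated span of the gene (132096888 to 132101070), so it is not upstream of the whole span. The windows of Tmem106a and Pecr also overlap the spans of their genes. Capitals mark matches on either strand to any of 8 searched motifs, listed after the sequences.
Prph: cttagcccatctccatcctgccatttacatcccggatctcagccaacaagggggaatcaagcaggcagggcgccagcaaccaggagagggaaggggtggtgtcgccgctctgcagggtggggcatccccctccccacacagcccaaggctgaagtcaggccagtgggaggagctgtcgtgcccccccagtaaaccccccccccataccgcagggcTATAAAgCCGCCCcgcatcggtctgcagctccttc
Spint2: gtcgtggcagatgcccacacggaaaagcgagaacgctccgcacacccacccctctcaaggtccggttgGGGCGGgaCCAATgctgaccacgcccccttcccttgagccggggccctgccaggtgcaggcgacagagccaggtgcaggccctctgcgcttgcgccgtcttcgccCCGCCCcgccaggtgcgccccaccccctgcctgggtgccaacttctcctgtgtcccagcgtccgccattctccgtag
Pecr: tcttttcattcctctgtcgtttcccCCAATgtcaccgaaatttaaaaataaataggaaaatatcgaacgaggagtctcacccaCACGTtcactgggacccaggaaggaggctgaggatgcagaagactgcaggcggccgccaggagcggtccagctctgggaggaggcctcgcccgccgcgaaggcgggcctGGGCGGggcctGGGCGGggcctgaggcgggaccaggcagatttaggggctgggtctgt

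Both strands were searched for the TATA motif TATAAA, the CCAAT box CCAAT, the GC box GGGCGG, the E-box CACGTG with its inner part ACGTG, which overlaps it, the AP-1 motif TGANTCA, the cyclic AMP element TGACGTCA and the NF-kappaB motif GGGANNTCC. Prph and Aoc1 held TATAAA, as did 12.9% of all 33469 promoters of this length. CCAAT stood before Spint2, Frem3 and Pecr (34% of all), and GGGCGG before Prph, Spint2, Tmem106a and Pecr (30.5% of all). ACGTG stood before Tmem106a, Pecr and Aoc1, against 16.6% of all promoters. CACGTG (5.59% of all), TGANTCA (6.34%), TGACGTCA (1.59%) and GGGANNTCC (3.68%) were found before none of the 6. No searched motif was held by all 6. The GC content of the 3 printed stretches was 64.4% for Prph, 69.6% for Spint2 and 60.8% for Pecr, against 43.2% for Aoc1, 56.4% for Frem3 and 58% for Tmem106a, with a median of 51.2% over all promoters. These matches describe letters in a window.

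Levels below are log2 of the processed spot intensity minus the 75th percentile of the array, which ran from 156 intensity units (IRI 1) to 291 (IRI 2). A value of 0 is the level of that percentile. A spot is called well above background where the scanner software marks it so. Between 53.5% and 59.7% of the spots of an array were. Of the 21 IRI spots of the 7 genes, 10 were well above background, as were all 28 non-IRI spots and 2 of the 7 in vitro spots. Probes were kept if they passed this flag in culture or on 3 or more liver arrays. Lactb, Spint2, Frem3 and Tmem106a could pass only with the help of non-IRI spots. The contrast between these counts is thus partly set by the filter and by the choice of genes. No spot of theirs was marked as an outlier or non-uniform, and 1 of 56 had an outlying local background (Tmem106a on non-IRI 1).

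In the fit across all genes (limma, Benjamini-Hochberg adjusted p under 0.05), 562 of 21311 genes (2.64%) were called lower in IRI and 76 (0.357%) higher. With the replicate number as a block the counts were 212 and 19. Aoc1 was not called with the block, and calls of the other 6 lend no support, as all 7 were chosen on this contrast. All 7 genes had every IRI array below every non-IRI array, as did 9.25% of all genes; the reverse order was seen in 6.56%. All 7 have a symbol by their choice, as have 17.8% of the genes called lower, 77.6% of those called higher and 45% of all. The 7 were chosen on this contrast, so their own differences are given as descriptions, with no p-value. Their log2 differences, IRI minus non-IRI, ran from -3.63 to -3.28 with a median of -3.40, beside a median of 0.01 over all genes. The SD between arrays was 0.21 to 0.64 in IRI and 0.18 to 0.84 in non-IRI, where the median gene had 0.25 and 0.30.

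**Figure D1:**
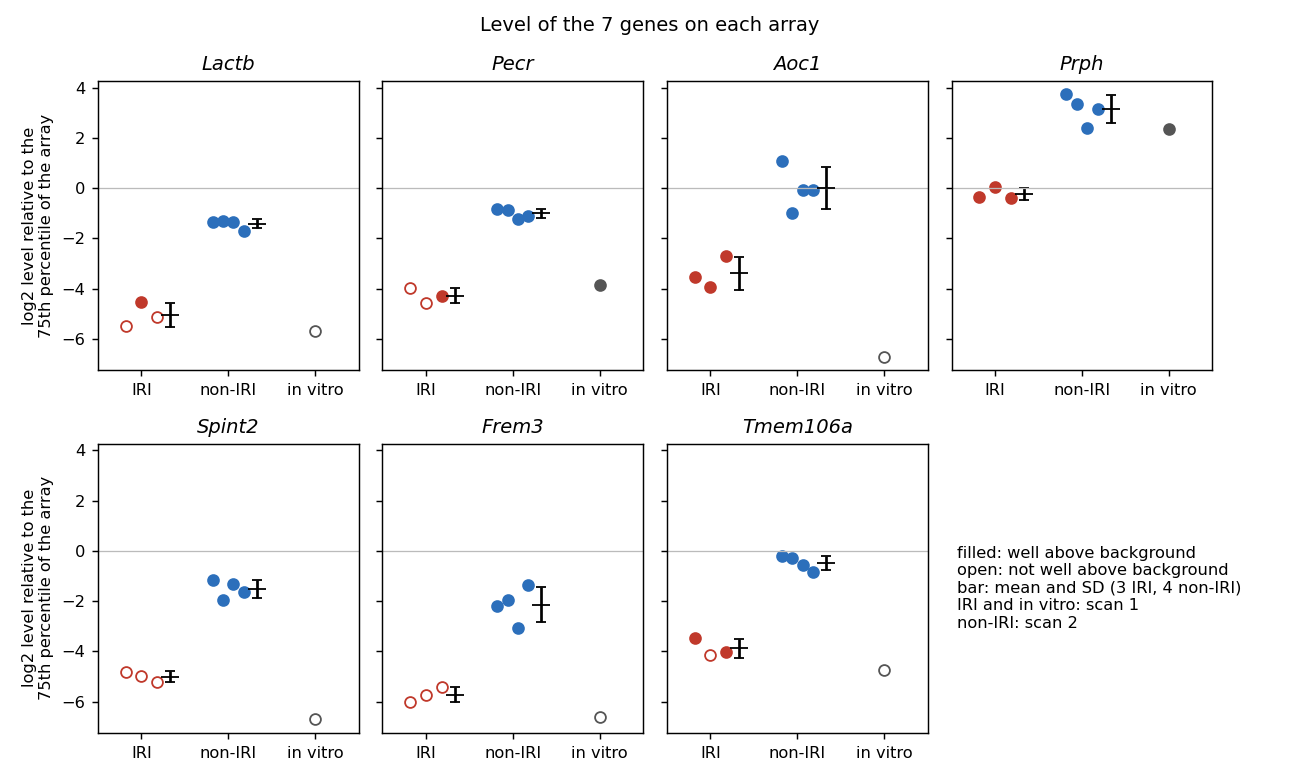
Log2 level of each of the 7 genes relative to the 75th percentile of the array, for 3 IRI, 4 non-IRI and 1 in vitro array; each point is 1 array, filled where the spot was well above background, and bars give the mean and SD of the liver groups. The IRI points lie below the non-IRI points in every panel, and the in vitro point is as low as the IRI points or lower except for Pecr (-3.87), where it is just above them, and Prph (2.36), where it is just under the lowest non-IRI array; open points have no order among themselves.

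Among the metabolic genes, Lactb (NM_001106833) had -5.47, -4.54 and -5.13 on IRI 1 to 3, against -1.35, -1.29, -1.35 and -1.69 on non-IRI 1 to 4. The in vitro array read -5.67. The groups did not overlap: the highest IRI array and the lowest non-IRI array were 2.85 apart. Like IRI 1 and IRI 3, the in vitro spot was not well above background, so these 3 have no order. Lactb averaged -5.05 ± 0.47 in IRI (SD, n = 3) and -1.42 ± 0.18 in non-IRI (n = 4), a difference of -3.63 ± 0.24 (SE), which is 12.4-fold lower in IRI. Only IRI 2 of the IRI arrays was well above background, so the size of that fold rests partly on dim spots.

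Pecr (NM_133299) had -3.98, -4.57 and -4.30 on IRI 1 to 3, against -0.81, -0.88, -1.23 and -1.09 on non-IRI 1 to 4. In vitro it read -3.87. The lowest non-IRI value stood 2.75 above the highest IRI value. Its difference was -3.28 ± 0.20 (SE), or 9.71-fold lower in IRI, where the mean was -4.28 ± 0.29 (SD, n = 3). IRI 3 and the in vitro array were well above background, the other 2 IRI arrays were not. The in vitro level was 0.41 above the IRI mean, and 7.29-fold higher in non-IRI than in vitro.

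Aoc1 (NM_022935) was the most variable of the 7. It had -3.55, -3.94 and -2.69 on IRI 1 to 3, against 1.08, -0.97, -0.08 and -0.05 on non-IRI 1 to 4. The in vitro spot read -6.72. The lowest non-IRI array, non-IRI 2, was still 1.72 above the highest IRI array, IRI 3. Means were -3.39 ± 0.64 in IRI (SD, n = 3) and -0.01 ± 0.84 in non-IRI (n = 4), a difference of -3.39 ± 0.49 (SE). All 3 IRI spots were well above background and the in vitro spot was not. With that spot set at the lowest level well above background on its array, the IRI level was 2.05-fold higher. The non-IRI level was then 21.5-fold higher than in vitro.

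Prph (NM_012633), the filament gene, was bright on every array. It had -0.35, 0.04 and -0.39 on IRI 1 to 3, against 3.74, 3.35, 2.41 and 3.15 on non-IRI 1 to 4. The in vitro array read 2.36, just under the lowest non-IRI array (a gap of 0.05) and above all 3 IRI arrays. Its means were -0.23 ± 0.23 in IRI (SD, n = 3) and 3.16 ± 0.56 in non-IRI (n = 4), a difference of -3.40 ± 0.31 (SE), or 10.5-fold lower in IRI. Within scan 1, Prph was 6.03-fold lower on the mean of the IRI arrays than on the in vitro array, with 1 array in culture and no test. All 8 spots were well above background, so neither side of this difference rests on a dim spot.

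Spint2 (NM_199087), the protease inhibitor, had -4.80, -4.98 and -5.23 on IRI 1 to 3, against -1.14, -1.94, -1.30 and -1.65 on non-IRI 1 to 4. In vitro it read -6.71. None of the 4 arrays of scan 1 was well above background and all 4 of scan 2 were. Each dim array was set at the lowest level that was well above background there, or at its own value if higher. Its level was then 7.75-fold lower in IRI than in non-IRI, and 7.60-fold higher in non-IRI than in vitro. These are not strict bounds, as a dim spot can lie above that lowest level. On IRI 2 it was 11.4 intensity units, and Tmem106a, at 16.3 there, was not well above background. Measured means were -5.00 ± 0.21 in IRI (SD, n = 3) and -1.51 ± 0.36 in non-IRI (n = 4).

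Frem3 (NM_001191699), the matrix gene, had -6.01, -5.74 and -5.41 on IRI 1 to 3, against -2.18, -1.94, -3.05 and -1.36 on non-IRI 1 to 4. The in vitro spot read -6.62. No spot of scan 1 was well above background, and non-IRI 3 was the dimmest of scan 2. With dim arrays set in the same way, its level was 5.02-fold lower in IRI than in non-IRI. It was 4.92-fold higher in non-IRI than in vitro. Means were -5.72 ± 0.30 in IRI (SD, n = 3) and -2.13 ± 0.70 in non-IRI (n = 4).

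Tmem106a (NM_001024967), the membrane protein gene, had -3.47, -4.16 and -4.02 on IRI 1 to 3, against -0.21, -0.30, -0.56 and -0.86 on non-IRI 1 to 4. The in vitro spot read -4.73. The groups stood 2.61 apart. IRI 1 and IRI 3 were well above background and IRI 2 and the in vitro array were not. Means of -3.88 ± 0.37 in IRI (SD, n = 3) and -0.48 ± 0.29 in non-IRI (n = 4) gave a difference of -3.40 ± 0.24 (SE). With the in vitro spot set as for Spint2, its level was 15.5-fold higher in non-IRI than in vitro.

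The spots were also read as scanned, before any background was subtracted. For Lactb the median pixel intensity was 46.5 to 58 in IRI, over local backgrounds of 29 to 34.5, against 119 to 160 in non-IRI, over backgrounds of 23 to 31. The in vitro spot read 36 over 21.5. For Spint2 it was 48.5 to 54 in IRI, 115 to 150 in non-IRI and 31.5 in vitro, and for Frem3 38 to 42 in IRI, 59 to 122 in non-IRI and 34 in vitro. Tmem106a had 42 to 46 in IRI, 158 to 239 in non-IRI and 36.5 in vitro. Without subtraction the liver groups of these 4 genes, which were chosen on this contrast, did not overlap either. The share of all genes that separate on the unsubtracted signal was not counted.

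Pecr read 49 to 52.5 in IRI, 135 to 180 in non-IRI and 42 in vitro. Aoc1 read 57 to 86 in IRI, 198 to 552.5 in non-IRI and 32 in vitro. Prph stood far above its background throughout, with 174.5 to 361.5 in IRI, 1410 to 3371 in non-IRI and 998 in vitro. Local background around the 7 spots was 21 to 35.5 in IRI, 20 to 31.5 in non-IRI and 19 to 24 in vitro. The medians were 31 in IRI, 28 in non-IRI and 23 in vitro.

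**Figure D2:**
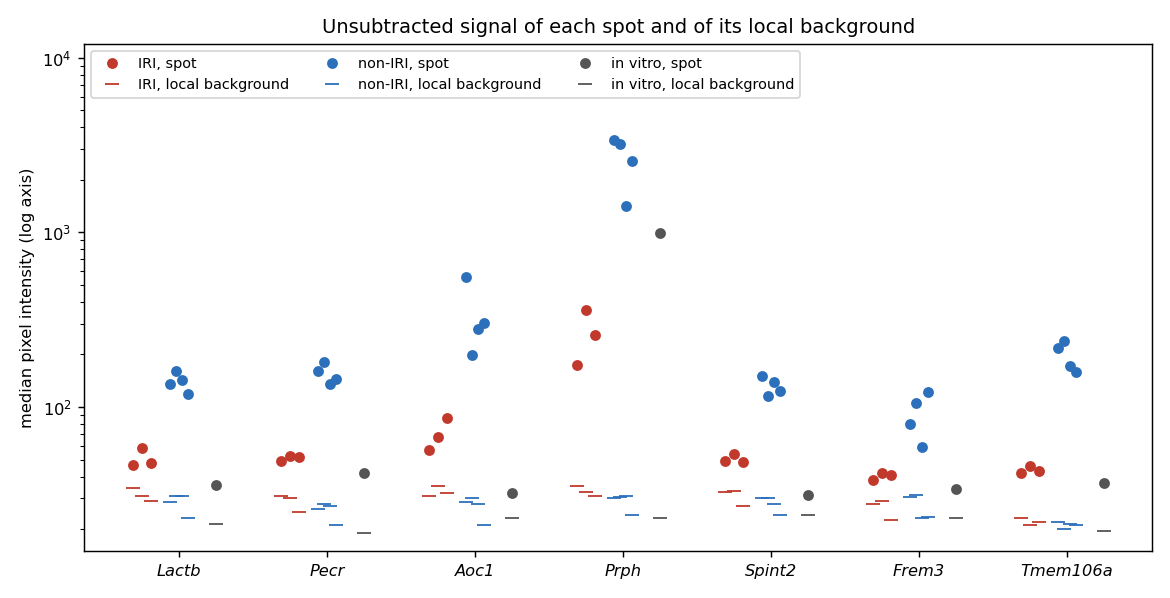
Median pixel intensity of each spot (points) and of its local background (dashes) on a log axis, for the 7 genes on 3 IRI, 4 non-IRI and 1 in vitro array. In each gene the IRI spots lie below the non-IRI spots, and Prph is bright in all 3 groups. Among the non-IRI spots, those of Frem3 (59 to 122) reach nearest to their backgrounds.

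Subtracting background stretches log2 differences of dim spots. On the median signal without background subtraction the IRI minus non-IRI difference was -1.36 for Lactb, -1.50 for Pecr, -2.08 for Aoc1, -1.29 for Spint2, -1.04 for Frem3 and -2.06 for Tmem106a. For Prph it was -3.21, close to the -3.40 of the background-subtracted values. With background corrected by normexp, which adds an offset of 50 to the signals, the differences were -1.37, -1.41, -1.82, -1.29, -1.02 and -1.70 for the first 6 genes in the same order and -2.76 for Prph. All 7 stayed lower in IRI under each setting that could be computed for them. They were chosen on this contrast, and as their liver groups did not overlap, leaving out 1 array could not change the sign.

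**Figure D3:**
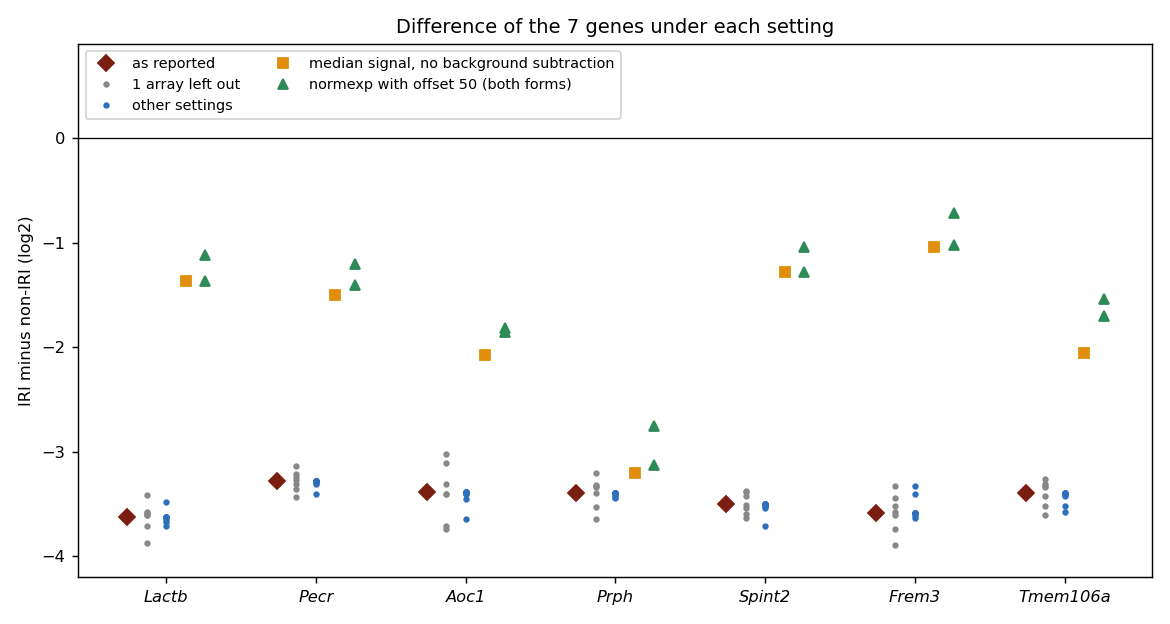
IRI minus non-IRI difference (log2) of the 7 genes as reported, with 1 liver array left out at a time, without background subtraction, under both forms of normexp and under the other settings. Leaving out 1 array kept every difference between -3.89 and -3.03, and the dim genes lay between -2.08 and -0.71 without background subtraction or under normexp.

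The in vitro array was not part of the contrast that chose the genes, but each comparison with it shares the liver arrays of that contrast. In vitro, the spot was well above background for Prph and Pecr and not for the other 5; it was not for 25.4% of the genes called lower. For 6 of the 7 genes it lay nearer to the IRI mean than to the non-IRI mean, and Prph was the exception. The same held for 76.5% of the 562 genes called lower in IRI, for 21.1% of the 76 called higher and for 52.2% of all genes. For Aoc1 the in vitro level was lower than in IRI, by 2.05-fold with the in vitro spot set as above. For Tmem106a, unsubtracted spot over local background was 1.87 in vitro against 1.83 to 2.19 in IRI. For Tmem106a, Lactb, Spint2 and Frem3 the order of IRI and in vitro is not resolved. Most genes called lower thus had the in vitro array on the same side as 6 of the 7.

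Sorted by scan, all 7 genes had the 4 arrays of scan 1 below the 4 arrays of scan 2. So did 89.5% of the genes called lower in IRI, and 5.85% of all genes. The reverse order, scan 1 above scan 2, was seen for 23.7% of the genes called higher in IRI and for 4.19% of all genes. As scan 1 holds the IRI arrays, choosing or calling genes by IRI against non-IRI already favoured these orders. Only the in vitro array stood outside that contrast, so the shares of called genes and of all genes are not like for like. The gap between the highest array of scan 1 and the lowest of scan 2 was 2.85 for Lactb, 2.64 for Pecr, 2.61 for Tmem106a, 1.72 for Aoc1 and 0.05 for Prph. The highest scan 1 spot of these 5 genes was well above background; for Spint2 and Frem3 no scan 1 spot was, and no gap is given. For Prph the difference between IRI and in vitro stands within 1 scan.

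**Figure D4:**
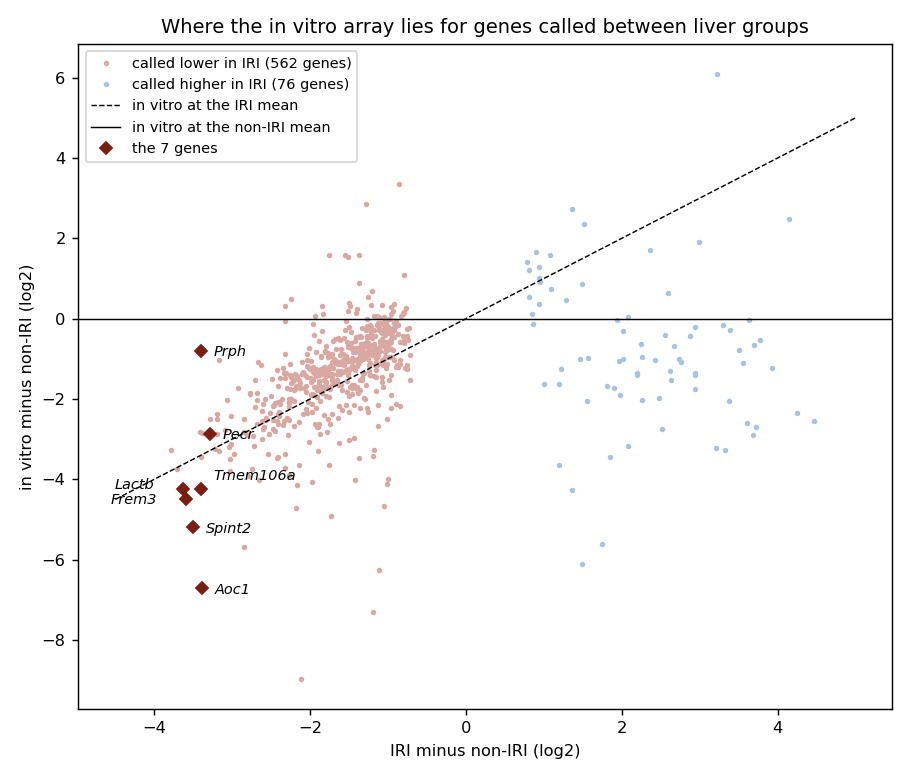
For each of the 562 genes called lower and 76 called higher in IRI, the in vitro minus non-IRI difference is plotted against the IRI minus non-IRI difference (both log2). Genes on the dashed line have the in vitro array at the IRI mean and genes on the horizontal line have it at the non-IRI mean; of the 7 genes, 5 lie under the dashed line, Pecr lies just above it and Prph lies near the horizontal line.

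Ranked by measured difference among the genes with a symbol called lower in IRI, the 7 hold places 1 to 5, 7 and 8. Place 6 is Cox7c, a subunit of cytochrome oxidase, which is not among the 7 and differed by -3.39. Just outside are Rchy1, a ubiquitin ligase, at -3.05, Calml3, a calmodulin-like protein, at -3.03, and Efnb1, an ephrin ligand, at -3.01. Their in vitro levels were -5.73 for Cox7c, -5.93 for Rchy1, -6.75 for Calml3 and -3.81 for Efnb1, against IRI means of -6.26, -5.78, -6.29 and -4.39. The step from Pecr (-3.28) to Rchy1 is wider than any other in this ranking down to Efnb1. The order rests on measured values of dim IRI spots, which for Spint2, Frem3, Cox7c, Rchy1 and Calml3 are not well above background on any IRI array, so the places are not exact.

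Other genes whose levels ran most like each of the 7 over the 8 arrays were found by Pearson's r among 9560 named genes. As the arrays fall into separate groups, r mostly reflects the group means, and it is a description. Lactb was closest to Exosc7 (0.995), Rnmt (0.992) and Rchy1 (0.987), and Tmem106a to Exosc7 (0.989), Nudt9 (0.987) and Chmp1b2 (0.986). Spint2 was closest to Pcsk7 (0.989), Celf5 (0.985) and Edc4 (0.985). Aoc1 ran most like Or1e27 (0.985), Pcsk7 (0.975) and Slc39a4 (0.967). Exosc7 and Pcsk7 were each close to a pair of the 7.

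For Frem3 the closest were Sdccag8 (0.989), Calml3 (0.970) and Helz (0.966), and for Pecr Ercc6 (0.992), Cox7c (0.989) and Rnf7 (0.988). Prph had a different set, with lower r: Acot2 (0.969), Sirt5 (0.968) and Mdm2 (0.959). In these 3 genes, as in Prph, the in vitro level was nearer to non-IRI than to IRI. Acot2, for example, averaged 0.06 in IRI and 0.74 in non-IRI, with 0.53 in vitro.

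The other genes of the pathways and families of the 7 were read next. Over 7 lists, 104 of 144 listed genes were kept; 0 were called lower in IRI, 1 was called higher and 103 were not called (limma, all genes tested), where 2.64% of all genes were called lower and 0.357% higher. At an unadjusted p under 0.05, 3 were lower and 8 higher, beside 1934 lower and 1248 higher of all 21311 genes. Their median difference was 0.05 beside 0.01 over all genes, with 45 lower and 59 higher.

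The peroxisomal list, the setting of Pecr, had 27 kept genes with a median of 0.06, of which 0 were called lower and 1 higher. That gene was Slc27a2, a very long-chain acyl-CoA synthetase and fatty acid transporter abundant in liver. It had -0.85, -1.20 and -1.38 on IRI 1 to 3, against -3.66, -4.25, -2.50 and -2.95 on non-IRI 1 to 4. The in vitro spot read -4.68. The groups did not overlap, and Slc27a2 rose by 2.20 ± 0.40 (SE; limma adjusted p = 0.0284), opposite in sign to Pecr. Pex5, the import receptor, differed by 1.56 (limma adjusted p = 0.143). It was well above background on only 2 IRI arrays and 1 non-IRI array, so that size rests largely on dim spots.

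The Slc27a2 call was lost with the replicate block (limma adjusted p = 0.109), under normexp (0.724), with only named genes tested (0.0537), and without any 1 of IRI 1 (0.0802), IRI 2 (0.0989), IRI 3 (0.0925), non-IRI 1 (0.0825) or non-IRI 4 (0.0596). The difference itself was 2.33 with the block, 2.20 with only named genes and 2.05 to 2.33 without those arrays, but 0.63 under normexp. The block gives non-IRI 4 no weight in this difference, as no IRI array has that replicate number. Beside it, 11 of 14 kept hepatocyte markers were called higher in IRI, as were 0.357% of all genes, with a median of 3.27. Their mean level was 0.48 to 0.93 on the IRI arrays, -3.32 to -1.22 on the non-IRI arrays and -4.47 in vitro. Their part in the Slc27a2 result was not tested.

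Mitochondrial protease and phospholipid genes, listed with Lactb, had 16 kept members and a median of 0.08, with Ptdss2, a phosphatidylserine synthase, at 0.54, Immt at 0.38 and Ptdss1 at 0.30. The 16 intermediate filament genes and linkers, listed with Prph, had a median of 0.10, with Krt18 at -0.89, Des at 0.62 and Krt19 at -0.74. In both lists 0 genes were called in either direction by limma, and at an unadjusted p under 0.05 the first had 1 higher and the second 1 lower. Desmin, encoded by Des, is a type III filament like peripherin.

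The 9 kept genes around Spint2 (Kunitz inhibitors, serine proteases and hepatocyte growth factor) had a median of 0.02. Prss8, which encodes prostasin, differed by 0.60 (limma adjusted p = 0.12), Cdh1, the epithelial cadherin, by 0.57 (0.414) and Tfpi by -0.35 (0.52). The 8 basement membrane genes around Frem3 had a median of -0.08, with Lamc1 at 0.26, Lama5 at 0.21 and Col18a1 at -0.15. None of Fras1, Frem1 and Frem2 was kept. Limma called 0 genes of either list, and at an unadjusted p under 0.05 Prss8 alone was higher.

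The 11 genes around Tmem106a, its family and lysosomal membrane proteins, had a median of -0.01, with Mcoln1 at -0.38, Lamp1 at 0.43 and Lamp2 at -0.44. The 17 genes of polyamine and amine oxidation around Aoc1 had a median of 0.08. Aoc3, another copper amine oxidase, differed by 0.82 (limma adjusted p = 0.0853), Smox, spermine oxidase, by 1.09 (0.254) and Srm, spermidine synthase, by 0.39 (0.356). Limma called 0 in both lists; at an unadjusted p under 0.05 the first had none and the second had 2 higher.

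**Figure D5:**
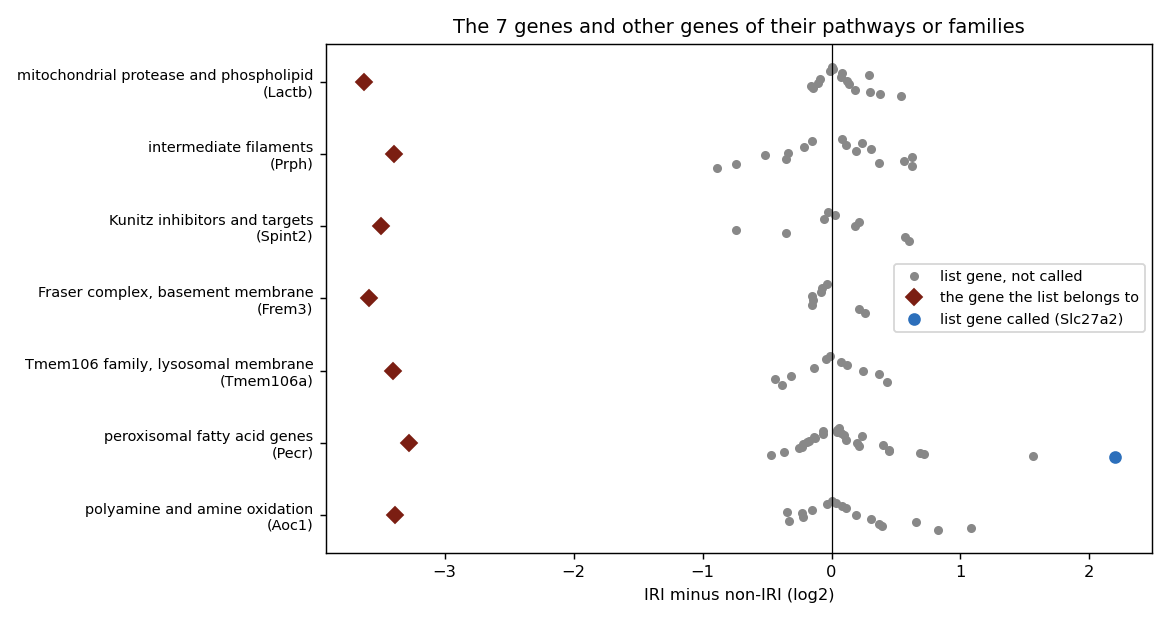
IRI minus non-IRI difference (log2) of each of the 7 genes (diamonds) and of the kept genes of its pathway or family (points), 1 row per list. The list genes lie between -0.89 and 2.20 and only Slc27a2 was called, while the 7 genes, which were chosen on this contrast, lie between -3.63 and -3.28.

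Cell type markers were read on the same arrays. All 15 mesenchymal stromal markers were kept, with a median difference of 0.09, and limma called 0 of them (1 lower at an unadjusted p under 0.05). Their mean level was 4.96 to 5.01 in IRI, 4.85 to 5.14 in non-IRI and 5.18 in vitro. The 6 kept mesothelial markers were all lower in IRI, with a median of -0.87 and 1 called, Gpm6a (-1.74, limma adjusted p = 0.0464). The mesothelial mean was 0.68 to 1.18 in IRI, 1.26 to 2.21 in non-IRI and -2.76 in vitro. The part of such cells in the lower signal of the 7 genes was not tested.

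Neuronal and Schwann cell markers, of interest for Prph, had 7 kept genes and a median of -0.28, with 0 called by limma (1 lower and 1 higher at an unadjusted p under 0.05). Their mean was -2.36 to -2.04 in IRI, -2.42 to -1.52 in non-IRI and -0.06 in vitro. Tubb3 differed by 0.50 and Stmn2 by -0.87. Of the 7 kept markers, 1 was well above background on no liver array. The ranges of the mean overlapped between the liver groups, and 5 of the 7 markers were lower and 2 higher in IRI. The part of such cells in the Prph difference was not tested.

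Markers of cells from liver and blood were mostly higher in IRI. The median difference was 0.84 for 9 macrophage and Kupffer cell genes, 2.39 for 4 neutrophil, 0.48 for 7 T and NK cell, 0.59 for 3 B cell and 2.97 for 4 erythroid genes. The erythroid mean was 0.47, 3.84 and -0.69 on IRI 1 to 3 and -3.13 to -1.10 in non-IRI, so IRI 2 stood apart, and without it the erythroid median was 1.79. The adipocyte median of 3 genes was 0.93, and ran from -0.26 without IRI 2 to 1.70 without non-IRI 2. The median was -0.75 for 5 endothelial genes, and Krt19, the 1 kept cholangiocyte gene, differed by -0.74. Krt19 is also among the mesothelial markers and the intermediate filament genes above, so these lists are not separate. Limma called 0 genes of these 8 lists; at an unadjusted p under 0.05, 4 macrophage, 4 neutrophil, 4 erythroid and 1 adipocyte gene were higher and 1 endothelial gene lower.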

How the data were processed

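Per the labels, 0.5 µg of TRIzol-extracted total RNA was labelled with Cy3 for each of 8 arrays. The deposited processed intensity of each spot came from Feature Extraction 11.0.1.1, per the file headers, while version 9.1 is named per the submitters' processing notes; its background steps are not given in the sources used here. The authors' deposited value table is in log2 units, scaled to the 75th percentile and centred per probe as far as its match to the scanner signals shows (r of 0.9997 or more in each column), and was used as an alternative. The scanner software's 0 or 1 flags in the deposited files marked spots well above background, and outlier or non-uniform spots, of which 45 to 117 per array were left out.

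Values are log2(processed intensity) minus the array's 75th percentile. Spots of a probe were averaged. Kept probes had to pass the background flag in culture or on 3 or more liver arrays (24822 of 41012). Symbols came from RefSeq transcripts (17541 probes had one). A gene took its brightest kept probe, which gave 21311 genes, of which 9600 had a symbol.

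Limma 3.58.1 (R 4.3.3) fitted a mean per group to all 8 arrays, with p-values adjusted over all genes; the in vitro group, 1 array, was assumed to vary like the others. The code was tested on simulated data. P-values set differences against the spread between these arrays, and the number of arrays limits precision. The labels do not say whether that spread is between animals. The files hold no mean spot signal, so normexp used the median signal. The labels do not say whether samples with the same replicate number are paired. Deviations of IRI and non-IRI arrays with the same replicate number correlated at 0.19, 0.16 and 0.10, and those with unlike numbers at -0.19 to 0.08. The main fit uses no pairing, and the replicate block does.

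The 7 genes, the lists and the alternatives were chosen with earlier results of these data known. Named genes are the 7, those ranked next, called or smallest-p list genes (up to 3 per pathway list, 2 per marker list, not all printed) and the 3 nearest genes of each.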

Additional observations from a re-analysis of the deposited data

Results flagged for a closer look

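Among the 4 non-IRI arrays, the Lactb value of non-IRI 4 (-1.69) stood apart from the other 3 (-1.35, -1.29 and -1.35): its gap to the nearest of them was 0.841 of the group's range, above Dixon's critical value for 4 samples. Of 8 genes looked at in this way (the 7 genes and Slc27a2), this was the only one past that value, and chance flags about 1 in 20 groups. Non-IRI 4 was still 2.85 above the highest IRI array.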

How the results depend on the processing

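All 7 genes stayed lower in IRI in each fit that could be made for them, including the 7 fits without 1 liver array. The genes were chosen on this contrast, and every IRI array lay below every non-IRI array. Leaving out 1 array therefore could not change the sign of a difference. The median of their differences, -3.40, was -1.50 on the median signal without background subtraction, -1.41 under normexp and -1.21 under normexp with bright background set to the array median, a form chosen after seeing the data; without 1 array it ran from -3.52 to -3.31. With the probes limited to those well above background on each of the 8 arrays (bright), only Prph of the 7 was kept.

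The number of genes called lower, 562, was 0 under normexp (457 at an unadjusted p under 0.05), 352 under its second form, 358 on the median signal, 71 with only named genes tested, 1315 with array weights and 212 with the replicate block, of which 202 were among the 562. Aoc1 was not called with the block, at a difference of -3.40. The number called higher, 76, was 0 under normexp (276 at an unadjusted p under 0.05), 33 with probes bright on all 8 arrays, 41 with only named genes, 508 with array weights and 19 with the replicate block. Without 1 array the counts ran from 256 to 605 lower and from 21 to 86 higher. Without IRI 3 they were 256 and 21, without IRI 2 321 and 23, without non-IRI 1 372 and 48, without non-IRI 4 374 and 42, and without non-IRI 2 403 and 36. Of the pathway genes, 1 lower and 5 higher were called with array weights, and 0 higher under normexp, with probes bright on all 8 arrays, with only named genes and with the replicate block; without 1 array 0 lower and 0 to 1 higher were called. With only named genes or bright probes fewer genes were tested; the cause of the other shifts was not tested. The replicate block changed no other call printed for a pathway gene. Scan (slide) as a block could not be fitted, since each liver group lies in 1 scan. Dim spots limit 6 of the 7 genes, each of which had spots in IRI or in culture that were not well above background.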

Other observations

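Genes called lower in IRI were mostly records without a symbol: 17.8% of the 562 had one, against 77.6% of the 76 called higher and 45% of all genes. For 23.7% of the 562 no IRI array was well above background, and for 25.4% the in vitro array was not.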
